A study of Mus musculus with 32 samples.

Results

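The comparison set the synovium of R2 mice against that of Control mice, and took every gene of the deposited synovium table, 1178 of 1178, in 3 R2 libraries and 3 Control libraries of the 18 synovium libraries. All mice were C57BL/6, an inbred laboratory strain. The labels name 6 synovium groups: Control, R1, R2, and MMS at D3, D7 and D14, without saying what MMS, R1 and R2 stand for. They give no genotype, sex or age, and no agent other than the group name, and they do not say whether the 3 replicates of a group are separate mice. P-values therefore measure only the spread between these libraries, which may be technical. Synovium is the membrane that lines a joint, and RNA of the whole tissue was sequenced. Values are FPKM, fragments scaled to transcript length and to the mapped total of the library, so levels may be compared between genes of different length.

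The table holds a selected part of the genes. In 98.0% of them the MMS D14 and Control means differed by at least 1.5-fold, so shares given below are shares of a table made largely of genes that differ between those groups. Control is among those groups, so the counts against Control may also be shaped by how genes were selected, which was not tested. Between the R2 and Control means, 675 genes (57.3%) differed by at least 1.5-fold. The listed FPKM summed to between 114194 and 132996 in the Control libraries and to between 83185 and 89567 in the R2 libraries. The lowest FPKM in the 6 libraries was 1.0, so genes near that level stood close to the floor of the values. Depth is unknown, since the values are FPKM and no totals were used here. Markers of lining fibroblasts (6 measured) and of fat cells (29 measured) were read in every library. Replicate 3 of R2, of Control and of all 3 MMS groups, but not of R1, stood apart from the other 13 libraries: the predicted gene Gm2023 was at 1.71 to 3.36 FPKM in these 5 and at 12.6 to 56.2 in the others, and Gm6958 at 1.17 to 2.30 against 5.12 to 20.5. The comparison below holds 1 such library in each group.

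Synovium is built from lining fibroblasts and macrophages over a looser layer that carries vessels, nerves and fat cells. When a joint is injured, its fibroblasts divide and lay down collagen, together with the glycoproteins and proteoglycans that organise collagen into fibres and the proteases that remodel it. The fat cells store triglyceride, burn fatty acids and branched-chain amino acids, and secrete hormones such as adiponectin and leptin. Interferons, signals of infection and inflammation, switch on a separate set of genes, among them GTPases that attack intracellular pathogens and the machinery that loads peptides onto class I histocompatibility molecules.

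R2 synovium differed from Control synovium in 716 genes (60.8% of those tested; limma, Benjamini-Hochberg adjusted p under 0.05), of which 185 were higher in R2 (15.7%) and 531 lower (45.1%). The largest rises were in genes of the extracellular matrix, from Mfap4 and Spp1 to Mmp2 and Postn. The largest falls were in the chemokine Cxcl13, the complement gene C7, interferon-induced GTPases and fat cell genes. The change reached 1 or more on the log2(FPKM + 1) scale in 197 genes (16.7%), 75 that rose (6.37%) and 122 that fell (10.4%). In 770 genes (65.4%) the 3 R2 values did not overlap the 3 Control values, 219 higher (18.6%) and 551 lower (46.8%). The median change over all 1178 genes was -0.38. Centring each library on its own median moved that to -0.16, a shift of 0.22, and gave 252 genes higher and 365 lower. A fold change on the log2(FPKM + 1) scale understates the change of low genes.

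**Figure D1:**
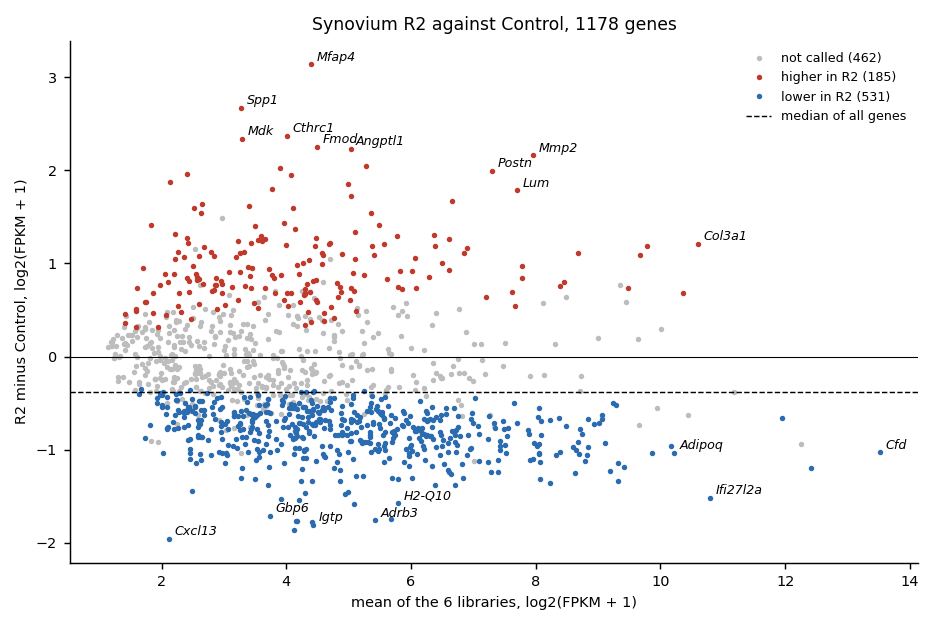
Difference between R2 and Control (vertical axis, log2(FPKM + 1)) against the mean level of the 6 libraries (horizontal axis, same scale), 1 point per gene. Red points are the 185 genes called higher in R2, blue points the 531 called lower, grey points were not called, and the dashed line is the median of all genes at -0.38; matrix genes such as Mfap4 lie at the top, and Cxcl13 at the bottom.

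Matricellular and adhesive glycoproteins, secreted proteins that bind cells to matrix without forming its fibres, rose as a group: 13 of 18 measured members were higher in R2, none was lower, and their median change was 1.19, beside 15.7% higher and a median of -0.38 over all genes. Periostin, Postn (chromosome 3, 54361109 to 54391037 in mm10), was at 75.2, 74.3 and 85.3 FPKM in Control and at 358, 323 and 269 in R2. Its lowest R2 library stood far above its highest Control library, and it rose by 1.997 (SE 0.29, adjusted p = 0.000123). Cthrc1, a secreted protein with a collagen triple helix repeat, was at 4.55, 7.05 and 7.12 FPKM in Control and 41.2, 37.4 and 29.8 in R2, a rise of 2.37 (SE 0.36, adjusted p = 0.000155). Thbs4, a thrombospondin of tendon and muscle, was at 12.6, 15.8 and 19.4 FPKM against 56.9, 56.0 and 66.5, a rise of 1.86 (SE 0.24, adjusted p = 5.09e-05). In both genes the groups were well separated. Wisp2, a CCN family protein, rose from 17.4 ± 4.12 to 59.3 ± 12.1 FPKM (mean ± SD, n = 3 in each group, as in all such pairs below). Osteopontin, Spp1, an adhesive phosphoprotein of bone and of activated macrophages, was low in Control, at 2.87, 3.06 and 2.62 FPKM, and at 18.1, 47.6 and 14.9 in R2. Its R2 libraries were uneven, with replicate 2 the highest, but each was above every Control library, and the rise was 2.67 (SE 0.67, adjusted p = 0.00318). Cilp, a cartilage matrix protein, rose by 1.41, and Fap, a fibroblast surface protease, by 1.18. Tenascin C, Tnc, rose by 1.59. Ctgf, a CCN family growth factor modulator with high levels in all 6 libraries, was at 484, 585 and 590 FPKM in Control and 879, 851 and 1036 in R2, a rise of 0.74. The cartilage oligomeric protein Comp rose by 0.54 and Thbs1 by 1.13, and both calls were lost without replicate 1 or 2 of either group (highest adjusted p 0.112 and 0.103), and that of Comp also without replicate 3 of Control (0.102). The hyaluronan-binding protein Tnfaip6 did not pass (3.69 ± 0.481 against 13.03 ± 5.71 FPKM, adjusted p = 0.0529), and it passed without the libraries that stood apart (adjusted p = 0.0449).

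Of 13 measured collagen chains, 10 were higher in R2 (15.7% over all genes) and none lower (45.1%), with a median change of 0.86. Col3a1, the chain of collagen III that is common in healing tissue, was at 1099, 998 and 976 FPKM in Control and 2578, 2508 and 2068 in R2. Col1a1, a chain of the main collagen of bone, tendon and scar, was at 625, 624 and 510 against 1628, 1653 and 877. No R2 library reached down to the Control range in either gene, and replicate 3 was the lowest R2 library in both. The rises were 1.21 (SE 0.17, adjusted p = 8.47e-05) for Col3a1 and 1.19 (SE 0.27, adjusted p = 0.00167) for Col1a1. Col5a2 and Col16a1, minor chains that associate with the large fibres, rose by 1.11 and 1.201, and Col6a3 of the beaded microfibrils by 0.86. The basement membrane chain Col4a5 was not called (8.76 ± 0.940 against 7.27 ± 0.663 FPKM, adjusted p = 0.357).

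The enzymes that modify and cross-link collagen moved less. Of 12 measured, 7 were higher in R2 (15.7% over all genes) and none lower, with a median change of 0.56. Without replicate 3 of Control 4 were higher. The prolyl hydroxylase subunit P4ha3 was at 2.77, 2.18 and 2.30 FPKM in Control and 9.23, 6.68 and 6.06 in R2, a rise of 1.27 (SE 0.28, adjusted p = 0.00126). Plod2, the lysyl hydroxylase that sets the cross-links of scar collagen, rose by 0.99, and Fkbp10, a collagen chaperone of the endoplasmic reticulum, by 0.73. The cross-linking oxidase Lox was at 15.9, 16.0 and 19.6 FPKM in Control and 26.2, 27.8 and 25.7 in R2, a rise of 0.61 (SE 0.19, adjusted p = 0.0116). Its 6 values formed 2 tight groups with a small gap. Its relative Loxl2 was not called (43.1 ± 6.68 against 63.3 ± 14.4 FPKM, adjusted p = 0.0767), and with the replicate number as a block it was (adjusted p = 0.0155).

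Microfibril genes held the largest rise of the comparison. Mfap4, a microfibril-associated glycoprotein of elastic fibres (chromosome 11, 61485431 to 61488900), was at 8.02, 5.78 and 4.93 FPKM in Control and 78.0, 91.7 and 32.7 in R2. Replicate 3 was lowest in each group, and the lowest R2 value was still well above the highest Control value. The rise was 3.14 (SE 0.39, adjusted p = 4.93e-05). Mfap2, which binds fibrillin and TGF-beta family growth factors, was at 17.8, 21.6 and 15.4 FPKM against 89.5, 87.2 and 59.5, a rise of 2.04. Of 8 measured microfibril and elastic fibre genes, 5 were higher (15.7% over all genes) and none lower (median change 0.66). The count higher was 3 without replicate 1 or 2 of R2 or replicate 3 of Control. The others that rose were Fbln2 by 0.91, Emilin1 by 0.67 and the latent TGF-beta binding protein Ltbp1 by 0.34. The call of Emilin1 was lost without replicate 1 or 2 of R2 or replicate 3 of Control (adjusted p up to 0.0758), and that of Ltbp1 without any library but replicate 3 of R2 (up to 0.0825). Fibrillin 1, Fbn1, the core of the microfibril, was not called (31.9 ± 2.68 against 46.4 ± 13.2 FPKM, adjusted p = 0.0558). It was called with the replicate number as a block (adjusted p = 0.0218).

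Small leucine-rich proteoglycans, which set the width and spacing of collagen fibrils, divided. Lumican, Lum, was at 112, 111 and 111 FPKM in Control and 440, 360 and 364 in R2, a rise of 1.78 (SE 0.20, adjusted p = 1.68e-05). Fibromodulin, Fmod, was at 19.6, 6.39 and 6.26 FPKM against 38.4, 63.6 and 45.7, and rose by 2.25 (SE 0.50, adjusted p = 0.00155). Control replicate 1 lay above the other Control libraries in Fmod and below all R2 libraries. Asporin, Aspn, rose by 1.67, and biglycan, Bgn, by 0.68. The call of Bgn was lost without replicate 1 or 2 of R2 or replicate 1 or 3 of Control (adjusted p up to 0.144). Podocan, Podn, went the other way: it was at 101, 89.5 and 71.8 FPKM in Control and 45.2, 46.1 and 60.4 in R2, and fell by 0.78 (adjusted p = 0.0036). Thus 4 of 5 measured members were higher and 1 lower (15.7% and 45.1% over all genes).

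**Figure D2:**
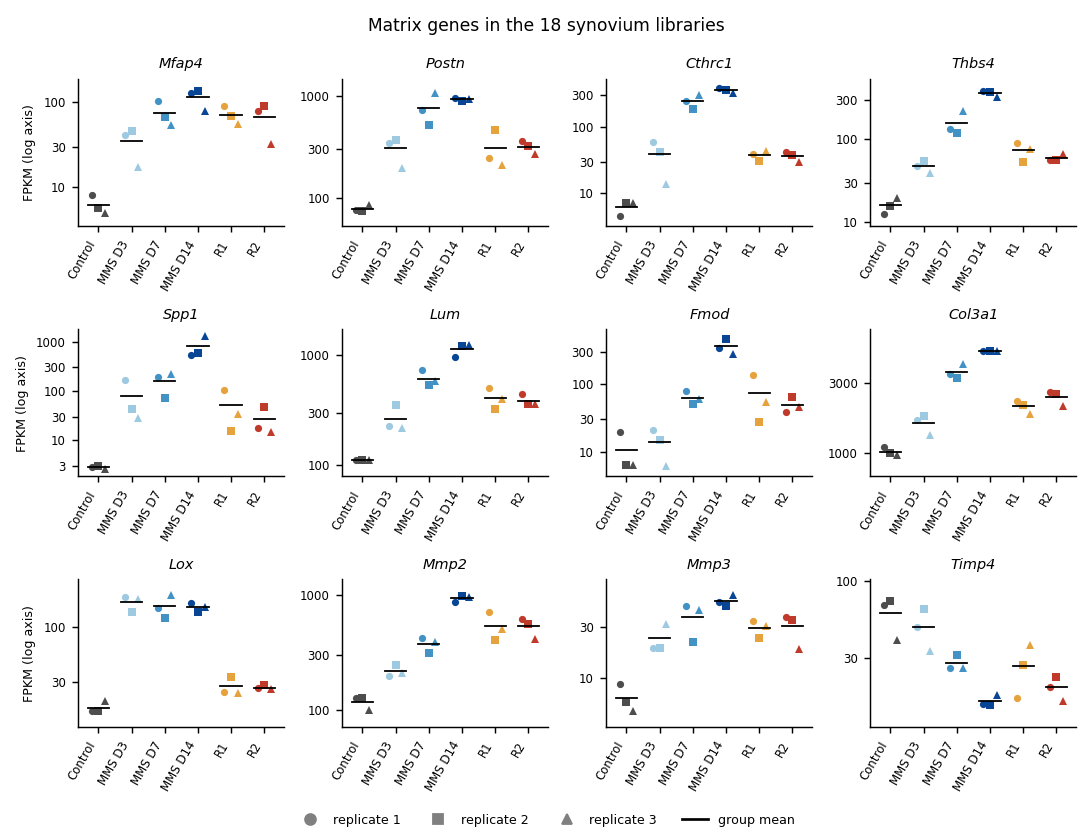
FPKM on a log axis for 12 matrix genes in the 18 synovium libraries, by group, with a marker for each replicate and a black line for each group mean. The R2 values of the 11 matrix genes other than Timp4 sit above every Control value, and those of Timp4, at 15.4 to 22.3 FPKM, sit below the 39.3 to 72.6 of Control.

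Several matrix proteases rose. Gelatinase A, Mmp2 (chromosome 8, 92827291 to 92853420), was at 126, 127 and 99.4 FPKM in Control and 620, 564 and 416 in R2, a rise of 2.16 (SE 0.20, adjusted p = 4.8e-06). Stromelysin 1, Mmp3, was at 8.80, 5.99 and 4.96 FPKM against 37.4, 35.1 and 18.9, a rise of 2.03 (SE 0.31, adjusted p = 0.000151). Mmp14, the membrane protease that activates the Mmp2 proenzyme, was at 53.8, 58.2 and 50.8 FPKM against 152, 140 and 90.1, a rise of 1.18. In all of these replicate 3 was the lowest R2 library, and no R2 library overlapped Control. Of 9 measured metalloproteinases, 5 were higher (15.7% over all genes) and none lower (median change 0.61). Without replicate 1 or 2 of R2, or replicate 3 of Control, 3 were higher. The aggrecanase Adamts5 was not called (19.0 ± 6.81 against 13.8 ± 3.43 FPKM), and with the replicate block it was, as lower (adjusted p = 0.0377). Cathepsin K, Ctsk, a collagen-cleaving protease of osteoclasts and fibroblasts, rose from 79.8 ± 15.6 to 179 ± 20.0 FPKM, whereas the osteoclast phosphatase Acp5 fell from 370 ± 71.3 to 190 ± 9.49. The tissue inhibitor Timp4 was at 68.6, 72.6 and 39.3 FPKM in Control and 19.1, 22.3 and 15.4 in R2, and fell by 1.59 (SE 0.29, adjusted p = 0.000406). Replicate 3 was lowest in each group and the groups stayed apart. Timp1, an inhibitor of many matrix proteases, was not called (72.5 ± 20.2 against 99.8 ± 25.8 FPKM, adjusted p = 0.312). Of 7 protease inhibitors, 3 were lower and none higher, a share lower that is near the 45.1% over all genes. The other members that fell were the serpin Serpina3c, by 0.80, and Rarres2, the fat cell hormone chemerin, by 0.72.

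Wnt genes held both rises and a fall. Dkk3, a secreted protein of the Dickkopf family, was at 8.45, 6.82 and 7.64 FPKM in Control and 33.0, 31.0 and 32.4 in R2, a rise of 1.94 (SE 0.22, adjusted p = 1.68e-05). Sfrp4, a secreted decoy receptor for Wnt ligands, was at 71.8, 69.0 and 47.7 FPKM against 174, 120 and 162, a rise of 1.27. Sfrp5, a decoy receptor made by fat cells, fell by 0.77, from 4.76 ± 1.88 to 2.27 ± 0.284 FPKM. The Wnt receptors Fzd2, Fzd8, Fzd1 and Ror2 rose by 0.89, 0.56, 0.52 and 0.58, and the call of Ror2 was lost without replicate 1 of R2 or replicate 3 of Control (adjusted p = 0.0561 and 0.0698). In all, 6 of 11 measured Wnt genes were higher and 1 lower (median change 0.56), beside 15.7% higher and 45.1% lower over all genes. In the TGF-beta and BMP list, 2 of 6 were higher and 2 lower (median change 0.09), beside the same shares over all genes. Fstl1, a secreted follistatin-like protein, rose by 0.97, and Inhba, a subunit of activin A, by 0.81. Inhbb, the other activin subunit, fell by 0.62, and the activin-type receptor Acvr1c by 1.11. The call of Inhba was lost without replicate 1 or 3 of R2 or replicate 1 or 2 of Control (adjusted p up to 0.105), and without the libraries that stood apart (0.0802).

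Growth factors and their receptors went both ways, with 5 of 13 higher and 7 lower, beside 15.7% higher and 45.1% lower over all genes, so that the share lower is near that of the table. Midkine, Mdk, a heparin-binding growth factor of development and repair, was at 2.68, 3.77 and 3.66 FPKM in Control and 24.1, 22.0 and 17.4 in R2, a rise of 2.34 (SE 0.31, adjusted p = 6.39e-05). Its relative pleiotrophin, Ptn, was at 3.80, 5.11 and 6.43 FPKM against 23.5, 17.4 and 13.1, a rise of 1.62. Angptl1, an angiopoietin-like protein, was at 14.2, 14.1 and 14.1 FPKM against 79.0, 69.2 and 62.5, a rise of 2.23 (SE 0.25, adjusted p = 1.65e-05). All 3 genes were higher in every R2 library than in any Control library, and Angptl1 was near-uniform in Control. Flt4, the lymphatic receptor VEGFR-3, rose from 2.55 ± 0.242 to 6.55 ± 1.56 FPKM, and Pdgfrl by 1.29. Vegfa, the main growth factor of blood vessels, was at 97.5 ± 9.54 FPKM in Control and 54.8 ± 8.76 in R2, and fell by 0.83 (adjusted p = 0.000728). Vegfb fell by 0.86, Fgf10, a growth factor for fat cell precursors, by 0.76, and the vessel-stabilising ligand Angpt1 by 0.61. Under centring on the library median 3 of the 13 were lower in place of 7, beside 365 of all 1178 genes. Angpt1 was among those lost (adjusted p = 0.067, and 0.0645 without replicate 3 of Control).

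The fat cell programme was lower in R2. Of 29 measured genes of adipocyte identity and secreted hormones, 26 were lower (45.1% over all genes), with a median change of -1.12. Their summed FPKM was 37552 to 44934 in Control and 17862 to 20531 in R2. In bulk tissue, fewer cells of a type and less RNA per cell cannot be told apart. Adiponectin, Adipoq (chromosome 16, 23146536 to 23158028), was at 1888, 1693 and 1564 FPKM in Control and 819, 858 and 823 in R2, and fell by 1.04 (SE 0.18, adjusted p = 0.000338). Pparg, the nuclear receptor that drives fat cell differentiation, was at 122, 102 and 142 FPKM against 47.8, 49.9 and 62.9, and fell by 1.17 (SE 0.19, adjusted p = 0.000197). Both groups were tight and apart in each gene. Leptin, Lep, was at 43.2, 39.1 and 54.0 FPKM against 12.9, 13.5 and 29.0, and fell by 1.34; replicate 3 was highest in each group. Cfd, the complement protease adipsin that fat cells secrete, was the most abundant transcript of the table and went from 17012 ± 3836 to 8251 ± 1105 FPKM. Among the largest falls of the list were Arxes1 and Arxes2, neighbouring genes of the X chromosome (136033367 to 136034946 and 135993824 to 135995355) that act in fat cell differentiation. Arxes1 fell by 1.76 (SE 0.18, adjusted p = 7.4e-06) and Arxes2 fell by 1.74 (SE 0.25, adjusted p = 0.000123); the genes are close copies, and how shared reads were divided between them is not given in the sources used here. The beta-3 adrenergic receptor Adrb3, through which nerves trigger fat breakdown, was at 89.9, 79.4 and 66.8 FPKM against 23.01, 33.1 and 14.6, and fell by 1.76. Nat8l, which makes N-acetylaspartate, fell by 1.53. The fatty acid carrier Fabp4 was below Control in every R2 library (6909 ± 1951 against 3684 ± 1466 FPKM) and was not called (adjusted p = 0.0514); with the replicate block it was (adjusted p = 0.00162). Apln, the vessel and fat cell hormone apelin, was the only member of the list that was higher: it was at 3.67, 2.78 and 1.57 FPKM in Control and 14.98, 14.7 and 4.48 in R2, a rise of 1.64 (adjusted p = 0.00323).

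Genes that store and release fat fell together. All 16 measured genes of the lipid droplet and of lipolysis were lower (45.1% over all genes), with changes from -1.38 to -0.78 and a median of -1.07. Perilipin 1, Plin1, the coat protein of the fat cell droplet, was at 748, 642 and 581 FPKM in Control and 321, 348 and 242 in R2. The triglyceride lipase Pnpla2 was at 1240, 1072 and 820 FPKM against 435, 482 and 445, and hormone-sensitive lipase, Lipe, at 614, 545 and 537 against 276, 305 and 263. In each of these genes the highest R2 library was far below the lowest Control library, and the changes were -1.12, -1.18 and -1.004. Of 23 genes of fatty acid and triglyceride synthesis, 20 were lower and none higher (median -1.03), among them Dgat1 and Gpat3, which make triglyceride, by 1.03 and 1.21. Acacb, an acetyl-CoA carboxylase that holds back fatty acid oxidation, fell by 1.34. Fatty acid synthase, Fasn, was uneven, at 944, 606 and 400 FPKM in Control and 319, 344 and 153 in R2, and its fall of 1.25 (adjusted p = 0.0288) was lost under centring (adjusted p = 0.0759) and without replicate 3 of R2 or replicate 1 or 2 of Control (up to 0.127). The desaturase Scd1 was not called (2651 ± 395 against 2028 ± 47.7 FPKM, adjusted p = 0.395).

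Fuel oxidation genes were lower as well. Of 31 genes of fatty acid uptake and oxidation, 25 were lower (45.1% over all genes) and none higher, with a median change of -0.80. Slc27a1, a fatty acid transporter, fell by 1.13, the carnitine palmitoyltransferase Cpt2 by 0.92, and the mitochondrial carrier Ucp3 by 1.04. Of 36 genes of glycerol, pyruvate and amino acid metabolism, 33 were lower and none higher (median -0.73). Bcat2, which begins the breakdown of branched-chain amino acids, was at 154, 135 and 124 FPKM against 64.3, 76.3 and 61.8, and Mccc2, a later enzyme of leucine breakdown, at 51.0, 50.0 and 50.7 against 26.2, 28.6 and 23.5. The groups did not overlap in either gene, and the falls were 1.02 and 0.93. Pfkfb3, a regulator of glycolysis, fell by 1.18 and pyruvate carboxylase, Pcx, fell by 0.9998. Of 23 carboxylesterases and xenobiotic enzymes, 16 were lower and none higher, including soluble epoxide hydrolase, Ephx2, by 1.38 and catalase, Cat, by 0.96. The sums of the adipocyte identity genes, given above, were lower in R2, as were the sums of all of these lists. Some lists share genes, such as Plin1, so their counts and sums are not separate. Between replicates of a group the sums did not always rank alike. The part of fat cells in the falls was not tested. Under centring on the library median 24 of 29 adipocyte genes, 16 of 16 droplet genes, 18 of 23 synthesis genes, 19 of 31 oxidation genes, 28 of 36 amino acid and glycerol genes and 11 of 23 xenobiotic genes were lower. Over all genes 365 of 1178 were lower under centring. Apln was the only gene of these lists that was then higher.

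Receptors through which hormones and metabolites act on fat cells showed the same direction. Of 23 measured receptors and steroid enzymes, 18 were lower (45.1% over all genes) and none higher, with a median change of -0.89. Hsd11b1, which regenerates active glucocorticoid inside cells, was at 45.4, 34.8 and 36.7 FPKM in Control and 9.26, 11.1 and 11.5 in R2, and fell by 1.78 (SE 0.37, adjusted p = 0.00103). The fatty acid receptors Ffar2 and Ffar4 fell by 1.46 and 1.31, the lactate receptor Hcar1 by 1.01, and the thyrotropin receptor Tshr by 1.46. Ffar2 was at 52.1, 55.6 and 47.7 FPKM against 21.2, 22.2 and 12.7. The growth hormone receptor Ghr was at 270, 242 and 208 FPKM against 121, 123 and 122. The 3 R2 values of Ghr were nearly equal, and the fall was 0.96.

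**Figure D3:**
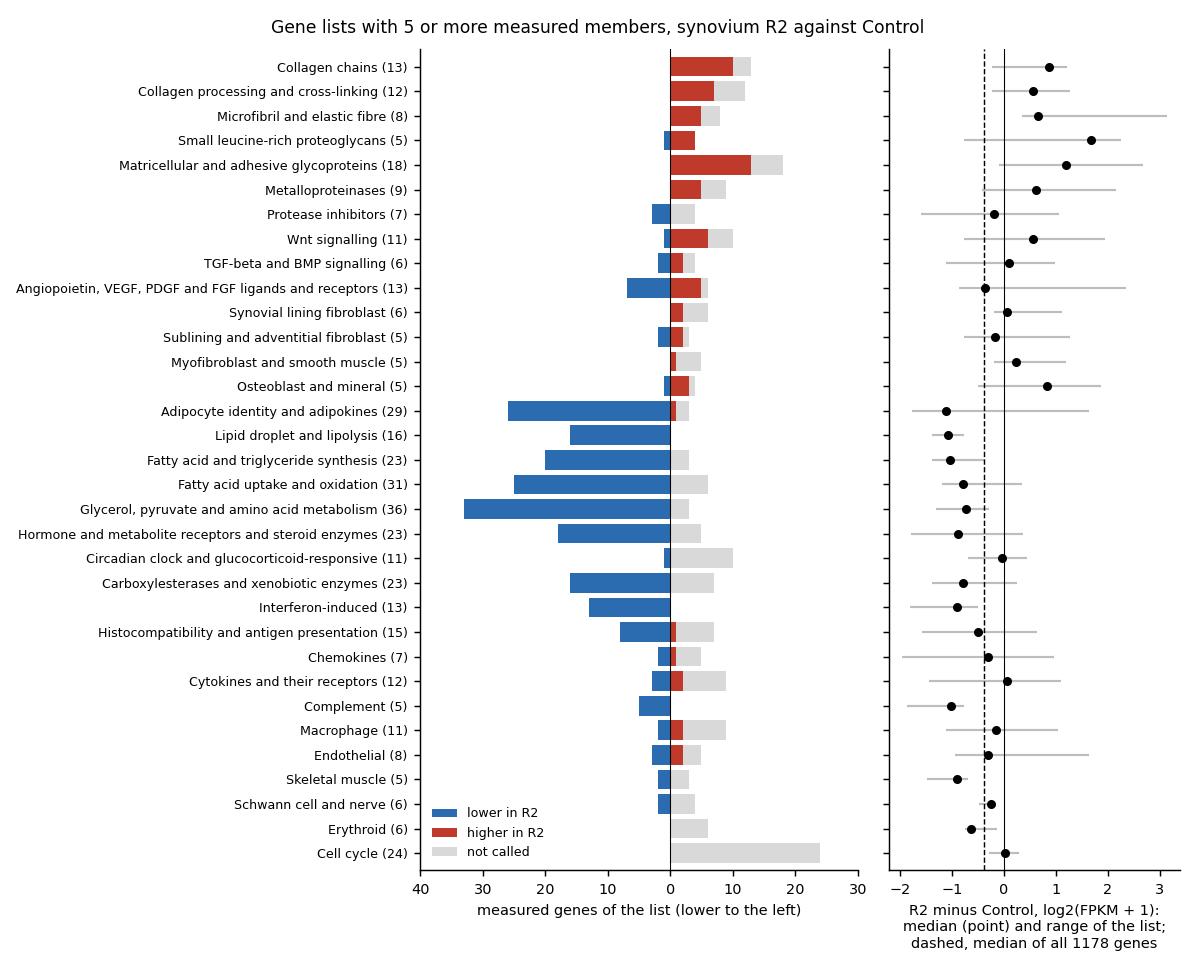
Left, the number of measured genes of each list called lower (blue, to the left of 0), called higher (red) or not called (grey, to the right of 0) in R2 against Control; the number measured is in parentheses. Right, the median (point) and range (line) of the change in each list on the log2(FPKM + 1) scale. The dashed line is the median of all genes, -0.38. The medians of the matrix lists lie to the right of 0, and those of fat and fuel metabolism to the left of the dashed line. Some of the ranges cross 0 or the dashed line.

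Interferon-induced genes were lower in R2, and this rested in part on 1 Control library. All 13 measured members were called lower (45.1% over all genes), with a median change of -0.91. Igtp, also called Irgm3, an immunity-related GTPase (chromosome 11, 58199556 to 58207591), was at 23.6, 122 and 20.8 FPKM in Control and 10.8, 8.68 and 12.4 in R2. Gbp6, a guanylate-binding protein, was at 14.3, 57.1 and 14.98 FPKM against 6.69, 6.71 and 5.84, and Iigp1, another immunity-related GTPase, at 15.2, 109 and 19.8 against 8.59, 6.96 and 11.3. Control replicate 2 was several times higher than the other Control libraries in each of these genes, and the other 2 Control libraries were also above all R2 libraries. The falls were 1.81 (SE 0.43, adjusted p = 0.0024) for Igtp, 1.71 (SE 0.34, adjusted p = 0.000745) for Gbp6 and 1.77 (SE 0.46, adjusted p = 0.00391) for Iigp1. Without Control replicate 2, 9 of the 13 were called lower. Centring on the library median left 8, beside 365 of all 1178 genes lower. A fit to the 6 libraries alone left 7 and lost Iigp1 (adjusted p = 0.052). The peak in Control replicate 2 was absent from Ifi27l2a, an interferon-induced protein of mitochondria, at 3416, 3241 and 2456 FPKM in Control and 1098, 1228 and 862 in R2, and was smaller in the chemokine Cxcl9, which draws T cells, at 12.7, 18.7 and 12.0 against 5.15, 4.98 and 5.40. They fell by 1.52 (SE 0.23, adjusted p = 0.000171) and 1.30 (SE 0.29, adjusted p = 0.00152). The calls of Gbp2, Gbp3, Gbp4 and Gbp7 were lost without Control replicate 2, with adjusted p between 0.0993 and 0.162, and those of Gbp3, Gbp4 and Gbp7 also without replicate 1 or 2 of R2 or replicate 3 of Control (up to 0.138). Members of these GTPase families are similar in sequence, and how shared reads were divided is not given in the sources used here.

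Interferons act through 2 kinds of promoter element, the ISRE and the GAS. The 250 bases upstream of the annotated start were searched on both strands for GAAANNGAA, a core of the ISRE, and TTCNNNGAA, the GAS, in RefSeq promoters of GRCm38.p6, which held 873 of the 1178 genes. Of the 8 interferon-induced genes with a promoter in the table, 7 held the ISRE core (Cxcl9, Gbp2, Gbp3, Gbp5, Gbp7, Igtp and Irgm2) and 4 held the GAS (Gbp5, Gbp7, Igtp and Irgm2). Over all 32851 promoters of that length, 7.13% held the ISRE core and 7.02% the GAS. A first search with 1 more base, an A, at the end of the core did not match Cxcl9. A match is a description of the letters and not a binding site. The list is made of interferon-induced genes, so matches in it do not bear on R2 against Control. The windows of 5 list genes are shown because they span these patterns: Igtp (chr11:58199306-58199555, plus strand) and Irgm2 (chr11:58214727-58214976, plus strand) carry both close together, Gbp5 (chr3:142496684-142496933, plus strand) carries both apart, and Gbp2 (chr3:142620413-142620662, plus strand) and Cxcl9 (chr5:92328080-92328329, minus strand) carry the ISRE core alone. Capitals mark the matches, 5′ to 3′ along the gene's strand, so that a match on the other strand reads TTCNNTTTC.
Igtp: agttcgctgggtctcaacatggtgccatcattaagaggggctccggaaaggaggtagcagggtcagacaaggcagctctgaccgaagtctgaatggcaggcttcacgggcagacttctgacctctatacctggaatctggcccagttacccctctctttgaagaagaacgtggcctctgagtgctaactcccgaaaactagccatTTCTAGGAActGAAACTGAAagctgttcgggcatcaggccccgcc
Irgm2: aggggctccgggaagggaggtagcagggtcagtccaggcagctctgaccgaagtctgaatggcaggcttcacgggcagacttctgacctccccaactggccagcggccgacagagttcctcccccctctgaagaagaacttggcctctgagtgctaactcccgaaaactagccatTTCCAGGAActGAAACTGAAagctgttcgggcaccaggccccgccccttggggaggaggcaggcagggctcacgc
Gbp5: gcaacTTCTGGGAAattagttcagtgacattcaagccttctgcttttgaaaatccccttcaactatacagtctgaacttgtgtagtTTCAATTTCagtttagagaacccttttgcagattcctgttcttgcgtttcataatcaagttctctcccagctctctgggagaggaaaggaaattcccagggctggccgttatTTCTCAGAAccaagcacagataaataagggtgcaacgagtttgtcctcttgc
Gbp2: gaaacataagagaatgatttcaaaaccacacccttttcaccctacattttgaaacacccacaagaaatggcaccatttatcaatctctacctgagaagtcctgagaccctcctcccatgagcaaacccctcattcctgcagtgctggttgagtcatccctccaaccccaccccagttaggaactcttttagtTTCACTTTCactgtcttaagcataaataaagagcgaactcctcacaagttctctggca
Cxcl9: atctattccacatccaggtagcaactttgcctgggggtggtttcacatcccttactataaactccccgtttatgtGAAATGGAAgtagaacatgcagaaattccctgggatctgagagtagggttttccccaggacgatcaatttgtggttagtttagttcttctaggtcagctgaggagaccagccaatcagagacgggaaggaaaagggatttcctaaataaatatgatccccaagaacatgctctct

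Among the genes with these windows, the values of Igtp are given above. Irgm2 was at 15.1, 49.3 and 18.7 FPKM in Control and 10.3, 9.17 and 14.8 in R2, and fell by 1.05 (SE 0.29, adjusted p = 0.00639), with Control replicate 2 again the highest; a fit to the 6 libraries alone lost the call (adjusted p = 0.0625). Gbp5 was at 4.49, 9.84 and 7.74 FPKM against 2.96, 2.59 and 5.36, with 1 R2 library inside the Control range, and fell by 0.84. Gbp2 was at 30.3, 85.7 and 31.5 FPKM against 22.1, 21.6 and 24.5, and fell by 0.91. All R2 values of Gbp2 lay below Control, by a small gap from Control replicates 1 and 3.

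Antigen presentation genes went both ways. Of 15 measured genes, 8 were lower and 1 higher, and the share lower is near the 45.1% over all genes (15.7% were higher). The genes that fell belonged to class I presentation, apart from Cd1d1, which presents lipids. The class I gene H2-Q10 was at 90.2, 90.6 and 104 FPKM in Control and 28.5, 36.2 and 29.2 in R2, and fell by 1.58 (SE 0.18, adjusted p = 1.65e-05). The transcriptional activator of class I genes Nlrc5 fell by 0.78, the immunoproteasome subunits Psmb9 and Psmb8 by 1.02 and 0.66, and the peptide transporter subunit Tap2 by 0.63. Psmb9 was at 39.1, 57.8 and 38.9 FPKM in Control and 19.6, 21.4 and 23.3 in R2, and Control replicate 2 was again the highest. The class I gene H2-K1 fell by 0.50, and its call was lost under centring (adjusted p = 0.0964). Class I genes are near copies of each other and their reads may be shared. The gene that rose, H2-Eb1, encodes a class II chain carried by macrophages, dendritic cells and B cells. It was at 127, 119 and 106 FPKM in Control and 199, 192 and 162 in R2, a rise of 0.64 (SE 0.21, adjusted p = 0.0138) that was lost without replicate 1 of R2 or replicate 3 of Control (0.054 and 0.0512). The call of Cd1d1 was lost without the same libraries (0.0503 and 0.0571). The class II genes H2-Aa (289 ± 48.5 against 454 ± 102 FPKM, adjusted p = 0.0546) and Cd74 (580 ± 145 against 876 ± 237 FPKM, adjusted p = 0.171) were not called. With the replicate block, 4 of the 15 genes were higher, beside 209 of all 1178 genes, with H2-Aa at adjusted p = 0.00381 and Cd74 at 0.0112.

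**Figure D4:**
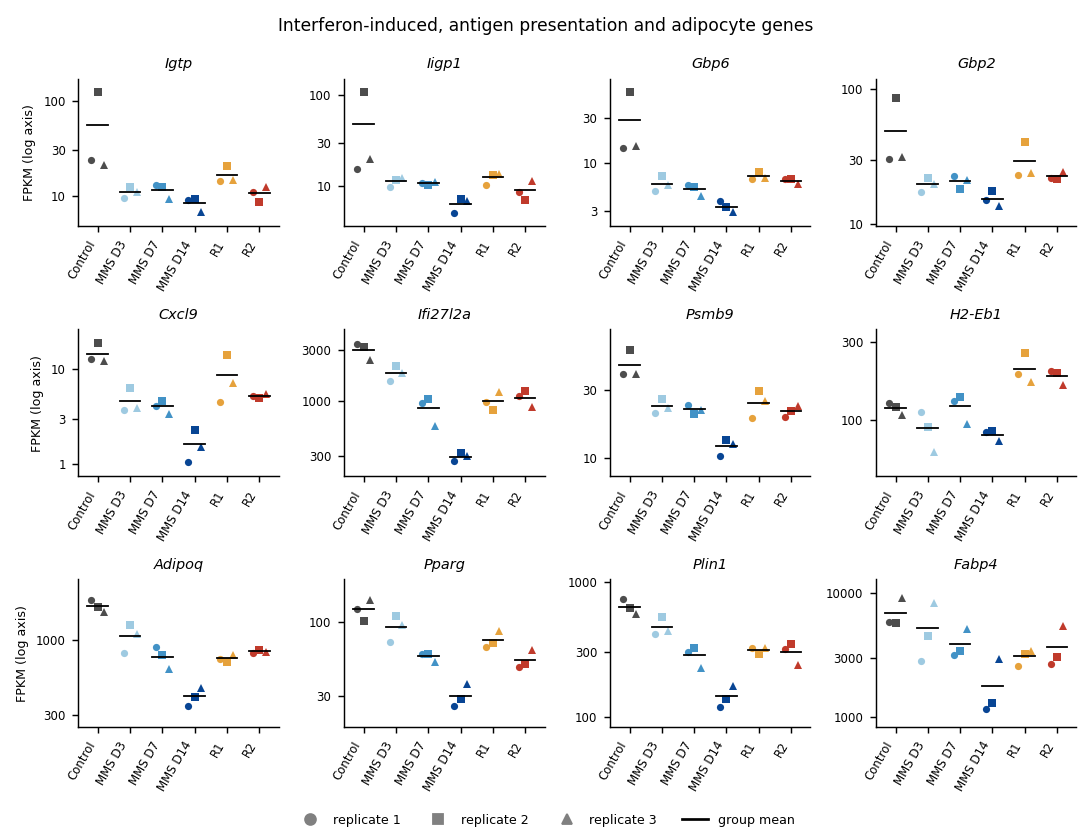
FPKM on a log axis for interferon-induced, antigen presentation and adipocyte genes in the 18 synovium libraries, with a marker for each replicate and a black line for each group mean. In Igtp, Iigp1, Gbp6 and Gbp2 the square of Control replicate 2 lies far above the other Control libraries, whereas the Control values of Adipoq and Plin1 lie close together and above all R2 values.

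Complement and chemokine genes held the largest falls of the comparison. Cxcl13, the chemokine that draws B cells into lymphoid follicles (chromosome 5, 95956951 to 95961068), was at 13.5, 8.04 and 3.82 FPKM in Control and 1.36, 1.16 and 1.12 in R2. The Control libraries were spread over a wide range and all lay above R2, and the fall was 1.96 (SE 0.29, adjusted p = 0.000129). Ccl8, a chemokine of monocytes and T cells, was higher (6.72 ± 2.15 against 14.8 ± 6.61 FPKM, a rise of 0.96, adjusted p = 0.0204) with overlapping groups, and its call was lost without replicate 1 or 2 of R2 or replicate 3 of Control (adjusted p up to 0.113). Of 7 chemokines, 2 were lower and 1 higher (45.1% and 15.7% over all genes). All 5 measured complement genes were lower. C7, a component of the membrane attack complex, was at 30.3, 31.7 and 35.4 FPKM in Control and 4.67, 8.78 and 12.8 in R2, and fell by 1.87 (SE 0.46, adjusted p = 0.00266). C3, the central component, fell by 0.78, Fcna, a ficolin of macrophages, by 1.02, and Cd59a, which blocks the attack complex, by 0.83. The call of C3 was lost under centring (adjusted p = 0.0662) and without replicate 3 of R2 or replicate 1 or 2 of Control (up to 0.0697). Among cytokines and their receptors, Il1r2, the decoy receptor for interleukin 1, was at 9.40, 8.71 and 6.76 FPKM in Control and 1.96, 3.57 and 1.90 in R2, and fell by 1.44 (SE 0.18, adjusted p = 4.93e-05). Of its list, 2 of 12 members were higher and 3 lower, beside 15.7% and 45.1% over all genes.

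Cell type markers were measured for several cells of the tissue, and the counts of these short lists stand beside 15.7% higher and 45.1% lower over all genes. Of 11 macrophage genes, 2 were higher, a share near that of the table, and 2 lower, with summed FPKM of 526 to 617 in Control and 387 to 456 in R2. Gpnmb, a glycoprotein of lipid-laden macrophages, was at 23.8, 23.5 and 21.3 FPKM in Control and 50.7, 44.5 and 49.3 in R2, a rise of 1.04 (SE 0.25, adjusted p = 0.00264), and Ms4a7 rose by 0.57, a call lost without replicate 1 of R2 or of Control (0.0664 and 0.0643). The resident macrophage genes Timd4 and Lyve1 fell by 0.74 and 0.62, and both calls were lost under centring (adjusted p = 0.112 and 0.179) and without replicate 1 or 2 of R2 or replicate 2 or 3 of Control (up to 0.078 and 0.148), and that of Lyve1 also without replicate 1 of Control (0.0749). Of 6 genes of the lining fibroblast, 2 were higher, none lower and 4 not called. Their median change was 0.055, with 3 of the 6 changes below 0 and 3 above. Hbegf, an EGF family ligand, was at 153, 169 and 165 FPKM against 317, 316 and 249, a rise of 0.85 (SE 0.16, adjusted p = 0.000594). Htra4, a serine protease, was at 215, 246 and 401 FPKM against 408, 362 and 1459; its groups overlapped, and its call was lost without replicate 3 of R2 (adjusted p = 0.192) or replicate 1 or 2 of Control (0.0989 and 0.0765). Of 5 osteoblast and mineral genes, 3 were higher and 1 lower. Ibsp, bone sialoprotein, was at 1.53, 1.24 and 1.12 FPKM in Control and 6.39, 8.88 and 7.04 in R2, a rise of 1.87, and Enpp1, which makes the mineralisation inhibitor pyrophosphate, rose by 1.22. The third, the osteocalcin gene Bglap, was at 15.6, 15.9 and 15.8 FPKM against 41.0, 37.0 and 15.2, and its call was lost without any 1 library but R2 replicate 3 (adjusted p up to 0.205). The alkaline phosphatase gene Alpl fell by 0.49, a call lost under centring (0.167) and without replicate 1 of R2 (0.0536). Of 5 skeletal muscle genes, 2 were lower, 1 of them the fat and muscle gene Car3. The other, the myosin light chain Myl1, was at 32.4, 117 and 32.9 FPKM in Control and 16.0, 17.4 and 18.9 in R2, and its fall of 1.48 was lost without Control replicate 2 (adjusted p = 0.0956). Of 8 endothelial genes 2 were higher and 3 lower, of 6 Schwann cell and nerve genes 2 were lower, and of 3 neutrophil genes 2 were lower. The single plasma cell marker measured, the proteoglycan Sdc1, rose by 0.82. No gene of the lists for T and NK cells or mast cells was measured. None of 6 erythroid genes was called, and none had an unadjusted p under 0.05.

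Cell cycle genes were low in both groups. Of 24 measured cell cycle genes none was called in R2 against Control by limma, and none had an unadjusted p under 0.05. Their changes lay between -0.29 and 0.29, and their summed FPKM was 68.6 to 83.7 in Control and 62.7 to 93.1 in R2. Birc5, a survival and cell division protein, was at 3.10, 2.68 and 1.73 FPKM in Control and 2.86, 1.91 and 1.01 in R2, with a 95% interval of the difference from -1.197 to 0.62. Tk1, the thymidine kinase of dividing cells, was at 1.95, 2.08 and 1.48 against 1.70, 1.10 and 1.51, with an interval from -0.93 to 0.49. These levels were near the lowest of the table, and an interval this wide does not show that the groups were alike. The same genes were higher in MMS D14: all 24 were called lower in R2 than in MMS D14 (25.5% over all genes), with a median difference of -2.42. The table is made largely of genes that differ between MMS D14 and Control, so this count is partly fixed.

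The remaining genes among the 15 largest rises and falls lie outside these lists. Fibin, a secreted protein of fin and limb development, was at 1.70 ± 0.257 FPKM in Control and 9.88 ± 3.81 in R2, a rise of 1.96 (SE 0.26, adjusted p = 6.39e-05). Emb, the immunoglobulin-like protein embigin, was at 6.67, 6.69 and 5.71 FPKM against 25.6, 25.0 and 23.4, a rise of 1.80 (SE 0.16, adjusted p = 3.16e-06), with the smallest standard error among the 15. Both genes were higher in every R2 library. Cdsn, corneodesmosin, a protein of cornified epithelium, was at 36.1, 31.6 and 25.1 FPKM against 12.9, 12.1 and 6.01, and fell by 1.54 (SE 0.24, adjusted p = 0.000183).

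Most genes that differed from Control stood between Control and MMS D14 in R2, and both comparisons use the same R2 libraries. The table is made largely of genes that differ between MMS D14 and Control (98.0% by at least 1.5-fold). The counts of genes in between, and of genes called against MMS D14, are therefore partly fixed by how the table is made up. Counts against Control may be as well, since Control is part of that difference. Against MMS D14, 1042 genes were called (88.5%), 742 higher in R2 (63.0%) and 300 lower (25.5%), and 455 (38.6%) of these changes reached 1, 277 higher (23.5%) and 178 lower (15.1%). In 1024 genes (86.9%) the groups did not overlap, with R2 higher in 730 (62.0%) and lower in 294 (25.0%). Of the 531 genes lower than Control, 465 were higher than MMS D14, and of the 185 higher than Control, 141 were lower than MMS D14. A further 154 genes were lower and 258 higher than MMS D14 and not called against Control. Spp1 was at 529, 595 and 1281 FPKM in MMS D14, far above both R2 and Control, and was lower in R2 by 4.92 (SE 0.67, adjusted p = 1.4e-05). Tnc was at 200, 156 and 108 FPKM in MMS D14, and was lower in R2 by 3.91 (SE 0.36, adjusted p = 1.24e-06). The other large falls against MMS D14 were in Hist1h2ap, Tk1, Nt5dc2 and Cthrc1, with differences of -3.54, -3.53, -3.28 and -3.26. The largest rises were in the macrophage and fat gene Retnla by 4.51, in paraoxonase 1, Pon1, by 3.10, in Adrb3 by 2.86, in the secreted protein myocilin, Myoc, by 2.80, in the cytochrome Cyp2e1 by 2.77 and in Tmem45b by 2.52. Pon1 was at 50.1, 45.7 and 43.0 FPKM in Control, 1.98, 2.70 and 3.17 in MMS D14 and 29.0, 31.8 and 28.6 in R2. Every R2 value was below Control, and the difference was not called by limma (adjusted p = 0.105). It was called as lower with the 2 groups alone (adjusted p = 0.00509) and without the libraries that stood apart (0.0399).

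A set of 24 genes was outside both groups, called in the same direction against Control and against MMS D14: 19 were above both and 5 below both. Cxcl13 was at 11.6, 15.2 and 11.6 FPKM in MMS D14, close to Control, and R2 was lower by 2.63 (SE 0.29, adjusted p = 2.66e-06). Engase, a cytosolic enzyme that trims sugar chains from proteins, was at 14.4, 15.1 and 11.5 FPKM in Control, 5.02, 5.95 and 7.75 in MMS D14 and 37.5, 42.8 and 20.9 in R2, and was higher by 1.19 and 2.22. Hbegf was at 115, 95.4 and 114 FPKM in MMS D14, below Control, and R2 was above both. Ctgf, at 333, 431 and 333 FPKM in MMS D14, Sfrp4, Flt4, Gpnmb and H2-Eb1 were likewise above both. The other genes above both were Htra4, Olfml2a, Nat8f3, Bglap, Bdh2, Pkp1, Ypel4, Zfp385b, Ephx3, Olfm2, Robo4 and Tmem273, and the others below both were Myl1, Scrg1, Spon1 and Uchl1. The calls against Control of Htra4, Bglap, Robo4, Ephx3, Ypel4, Olfm2, Zfp385b, Tmem273, H2-Eb1, Myl1, Spon1 and Uchl1 were each lost without at least 1 single library. The call of Myl1 against MMS D14 was lost without replicate 3 of MMS D14 (adjusted p = 0.0524) and without the libraries that stood apart (0.063).

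**Figure D5:**
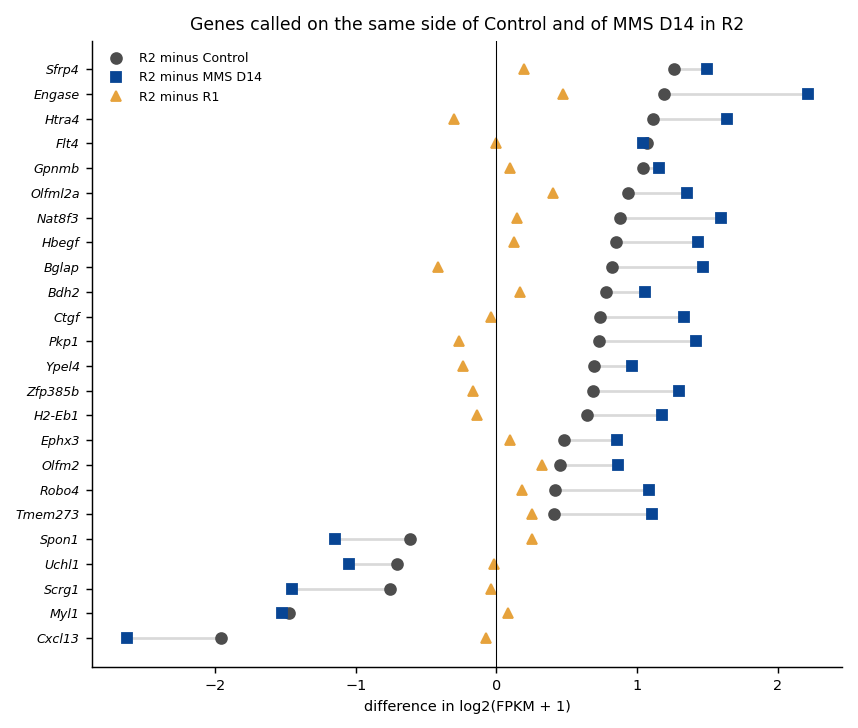
Differences in log2(FPKM + 1) for the 24 genes called in the same direction against Control and MMS D14: R2 minus Control (circles), R2 minus MMS D14 (squares) and R2 minus R1 (triangles). The circles and squares of a gene lie on the same side of 0, such as Cxcl13 at -1.96 and -2.63 and Sfrp4 at 1.27 and 1.499, and each triangle lies closer to 0 than both.

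R2 and R1, the other group with that kind of name, were not told apart by these libraries. Of 1178 genes none was called by limma (lowest adjusted p = 0.421), and 52 (4.41%) had an unadjusted p under 0.05. In 191 genes (16.2%) the 3 values of R2 and R1 did not overlap, 94 higher in R2 (7.98%) and 97 lower (8.23%). The 95% interval of the difference lay within 1 log2 unit of 0 in 1042 genes (88.5%), with a median half-width of 0.43, so a difference below about that size could not be resolved with 3 libraries a group. Without the libraries that stood apart, which takes 1 library from R2 and none from R1, 14 genes were called, 4 higher and 10 lower in R2. Chosen after their values were seen, the 4 genes with the smallest unadjusted p were Fam178b, Pdk4, Ccl8 and Akap12, all at adjusted p = 0.421. Ccl8 was at 30.3, 50.8 and 27.8 FPKM in R1 and 20.0, 17.0 and 7.33 in R2, without overlap. Pdk4, a kinase that blocks pyruvate use, was at 3.77, 4.50 and 5.05 FPKM in R1 and 6.41, 7.36 and 11.0 in R2.

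The cartilage of R2 and Control mice was deposited as a separate table with 2 libraries a group and a signal of unstated unit. Of the 1178 synovium genes, 240 were also there. Of the 56 that were called higher in synovium, 19 (33.9%) were higher in both cartilage R2 libraries than in both cartilage Control libraries, and 12 (21.4%) were lower. Of the 80 called lower in synovium, 28 (35.0%) were lower in cartilage and 12 (15%) higher. Over all 240 shared genes the cartilage groups did not overlap in 131 (54.6%), 57 (23.8%) higher and 74 (30.8%) lower in R2. The cartilage values were not tested, since the unit is not stated.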

How the data were processed

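RNA of mouse synovium was measured in 18 libraries of 6 groups, 3 a group. Per the file headers, the synovium values are FPKM made by the authors. Reads were aligned with HISAT2 to mm10, per the submitters' processing notes. The quantifier, the annotation and the rule that selected the listed genes are not given in the sources used here. The deposited cartilage table gives a signal of unstated unit and was used only for direction. Positions are from GENCODE M21 (GRCm38, the build named mm10), which placed 1165 of the 1178 symbols. A symbol that had become a date is not named.

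A value was computed as log2(FPKM + 1), with pseudocount 1, and genes with FPKM of at least 1 in at least 3 libraries were kept, which removed none. The test was limma 3.58.1 in R 4.3.3, with a mean-variance trend, over all 18 libraries, with Benjamini-Hochberg adjusted p under 0.05; the code was tested on simulated data. Members and gene lists were chosen with earlier results of these data known. Named are the 15 largest rises and falls against Control that passed without overlap of the groups, 6 each against MMS D14, up to 6 members of each list with the smallest adjusted p, and list members given for their function. Some genes the rule names are not reported here. List members beyond the smallest 6 were chosen after their values were seen. Deviations from the group means correlated between libraries with the same number by 0.41, 0.359 and 0.661 for R2 with Control, 0.349, 0.269 and 0.352 for R2 with MMS D14, and 0.152, -0.0874 and 0.271 for R2 with R1. By the rule that every such correlation exceed 0.1, the numbers, which come from the labels, pair R2 with Control and with MMS D14. For Control this rests on replicate 3: R2 replicate 2 correlated more with Control replicate 1 (0.484) than with replicate 2, and R2 replicate 1 about as much with Control replicate 2 (0.4), so replicates 1 and 2 are not matched by number. No pair of the 6 libraries shared more than 0.255% of identical values. Alternatives were centring on the library median, pseudocount 0.1, no filter, no trend, the replicate block, the 2 groups alone, a fold threshold, leaving out each replicate and, added after the data were seen, a term for or removal of the libraries that stood apart.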

Additional observations from a re-analysis of the deposited data

Results flagged for a closer look

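In 12 of the genes named above, every R2 library moved one way from Control in synovium and the opposite way in cartilage, where each group has 2 libraries. The difference between the tissues was not tested. With 2 libraries a group, the cartilage groups did not overlap in 54.6% of the 240 shared genes. Of the shared genes called higher in synovium, named or not, 12 of 56 (21.4%) were lower in cartilage, beside 30.8% of all 240. Of those called lower in synovium, 12 of 80 were higher in cartilage, beside 23.8% of all 240. Opposite moves were therefore no more common than over all shared genes, and the genes below are descriptions. Cartilage changes are on the log2(signal + 1) scale. Of the genes that rose in synovium, the thrombospondins Thbs4 and Comp were lower in cartilage by -0.76 and -0.52. Thbs4 was at a signal of 105 and 80.6 in cartilage Control and 46.1 and 63.5 in cartilage R2. The mineral genes Ibsp and Enpp1 were lower there by -0.53 and -0.32, and Ibsp was at 1433 and 1174 in Control and 1030 and 784 in R2. The Wnt receptors Fzd8 and Fzd2 were lower by -0.38 and -0.24, and Zfp385b and Olfml2a by -0.35 and -0.31. Of the genes that fell in synovium, Il1r2, the interleukin 1 decoy receptor, was higher in cartilage by 0.49, at 9.48 and 11.1 in Control and 11.7 and 18.5 in R2. Uchl1 was higher by 0.32, the triglyceride enzyme Dgat1 by 0.25 and the fatty acid receptor Ffar2 by 0.21.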

How the results depend on the processing

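Against Control, 716 genes were called, and 617 (252 higher, 365 lower) under centring, 713 with pseudocount 0.1, 717 without the trend, 695 with the 2 groups alone, 793 with a term for the libraries that stood apart and 791 without them. Leaving out 1 library gave 554 (without replicate 1 of R2) to 751 (without replicate 3 of R2). With the replicate block 775 were called, and of the 166 genes named for this comparison the block changed 6 calls, all given above. An added threshold of 1 on the log2 change, which keeps fewer genes by construction, left 197 against Control and 455 against MMS D14. Against MMS D14, the count was 1042, 844 under centring, 1080 with the replicate block, and 956 to 1045 with 1 library left out. Against R1, none was called with 1 library left out (0 to 0) or with the replicate block (0), and 14 were called without the libraries that stood apart; the cause was not tested. Of the 166 genes named against Control, 35 lost their call in at least 1 alternative and none reversed. Depth is unknown, and 3 libraries a group limit what could be resolved.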

Other observations

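Lists in this section were chosen after the values were seen, and their counts are descriptions. Integrins and proteins that link cells to matrix were higher in 12 of 13 measured genes (15.7% over all genes), with a median change of 0.87. Itgbl1, an integrin-like secreted protein, was at 8.08, 7.33 and 12.0 FPKM in Control and 26.3, 28.6 and 32.4 in R2, a rise of 1.60. The collagen receptor gene Itga11 was at 9.07, 8.28 and 4.84 against 22.6, 20.2 and 14.1, and Antxr1, a membrane protein that binds collagen, at 24.7, 24.5 and 20.0 against 79.9, 73.3 and 55.6. In each of these genes all R2 libraries lay above Control. All 11 measured tendon and ligament genes were higher, with a median of 1.41, and 7 of them are also described in the report's lists or largest changes. Scx, the transcription factor scleraxis of tendon cells, was at 1.21 ± 0.349 FPKM in Control and 4.90 ± 1.32 in R2 (mean ± SD, n = 3), a rise of 1.41, and the tendon protein Tnmd rose by 1.04. The Control level of Scx was near the lowest FPKM of the 6 libraries, 1.0.

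Peroxisomal genes were lower in 25 of 28 (45.1% over all genes) and none was higher, with a median of -0.78. Under centring 19 of the 28 were lower, beside 365 of all 1178 genes. Pex11a, which divides peroxisomes, was at 33.5, 29.7 and 19.8 FPKM in Control and 11.9, 15.8 and 9.65 in R2, and fell by 1.09. Abcd2, which carries very long fatty acids into peroxisomes, fell by 1.02, and Phyh, which begins the breakdown of branched fatty acids, by 0.85.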
